A study of Homo sapiens with 4 samples.

Results

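The AP-1 and EGR immediate early factors were examined in DLD-1 cells, a human line grown from a colorectal adenocarcinoma. The members are FOS, FOSB, FOSL1, FOSL2, JUN, JUNB, JUND, EGR1, EGR3 and ATF3, and every probe that the platform annotation gives to 1 of them alone was taken. This gave 11 probes for 10 genes, of 31741 probes and 18336 named genes in all. FOSL2 had 2 probes, each of the other 9 genes had 1, and no member shared a probe with another gene.

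DLD-1-HMGA2 cells carried pCMV6-HMGA2, a plasmid for HMGA2 with a tGFP tag, and DLD-1-Vector cells carried pCMV6-AC-GFP. Both lines therefore had a green fluorescent protein plasmid, and both were selected as stable clones in 1 mg/mL G418 and kept in serum-containing medium with 0.5 mg/mL. The sources used here do not say how many clones made up each line. Cells were untreated, and no serum starvation or stimulus is named. There were 4 single-colour arrays, 2 for each line. The labels do not state separate cultures for the arrays of a line, so the p-values rest on array-to-array spread that may be technical.

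AP-1 is a dimer of basic leucine zipper proteins. JUN proteins pair with each other or with FOS proteins, whereas FOS proteins need a JUN partner to bind DNA, and the dimer recognises the TPA response element TGACTCA or, with ATF partners, the cyclic AMP response element TGACGTCA. The EGR factors are zinc finger proteins that bind GC-rich sites. Many genes of both families are known as immediate early genes. Growth factors, serum and stress switch those genes on through MAP kinases without new protein synthesis, and their messenger RNAs are short-lived. In the intestine JUN and the FOS family act downstream of the RAS and MAP kinase pathways in proliferating epithelium.

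JUN, JUNB and ATF3 are shown by sequence, because they were the members that passed the test both as deposited and after quantile normalization. The windows are the 250 bases before the RefSeq start on GRCh38.p14, written 5′ to 3′ on the strand of the gene, and capitals mark matches to the motifs listed after them. JUN lies at chr1:58784048-58784297 on the minus strand, JUNB at chr19:12791236-12791485 on the plus strand and ATF3 at chr1:212565157-212565406 on the plus strand, the upstream-most of 2 starts that the table lists for it.
JUN: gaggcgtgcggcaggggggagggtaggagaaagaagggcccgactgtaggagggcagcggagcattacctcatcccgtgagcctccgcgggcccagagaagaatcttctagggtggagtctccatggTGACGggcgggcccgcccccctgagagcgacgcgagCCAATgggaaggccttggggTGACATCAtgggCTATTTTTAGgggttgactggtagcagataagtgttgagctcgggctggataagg
JUNB: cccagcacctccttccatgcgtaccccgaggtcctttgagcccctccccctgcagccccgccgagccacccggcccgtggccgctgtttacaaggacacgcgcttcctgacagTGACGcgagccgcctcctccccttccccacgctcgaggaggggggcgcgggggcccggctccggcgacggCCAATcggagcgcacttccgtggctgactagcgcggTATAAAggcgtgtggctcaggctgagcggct
ATF3: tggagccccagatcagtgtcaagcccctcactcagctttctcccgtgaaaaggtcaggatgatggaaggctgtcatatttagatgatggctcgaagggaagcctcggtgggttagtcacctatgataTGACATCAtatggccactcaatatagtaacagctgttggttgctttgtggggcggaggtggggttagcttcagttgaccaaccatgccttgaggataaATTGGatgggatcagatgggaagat

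The following motifs were searched on both strands: TGACTCA, TGACGTCA, the JUN-type variant TGACATCA, the half-site TGACG, the CArG box of serum response factor, the MEF2 site, GCGNGGGCG of EGR factors, CCAAT and TATAAA. Of these, TGACG can lie inside TGACGTCA, and it did so upstream of JUND. JUN held TGACATCA from 67 to 60 bases before its start, a MEF2 site from 55 to 46, a CCAAT box and a TGACG half-site. ATF3 held TGACATCA from 123 to 116 bases before that start and a CCAAT box on the opposite strand. Its other start had only a TATAAA match, from 230 to 225 bases upstream. JUNB had neither TGACATCA nor that MEF2 spelling in this window. It had a TGACG half-site, a CCAAT box and a TATAAA match from 31 to 26 bases before its start. Among all 35116 windows of this length TGACATCA was found in 2.37% and that MEF2 spelling in 0.134%. CCAAT was found in 32.0%, TGACG in 21.2% and TATAAA in 10.7%. A match is a description of the letters and not evidence of a bound factor.

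**Figure D1:**
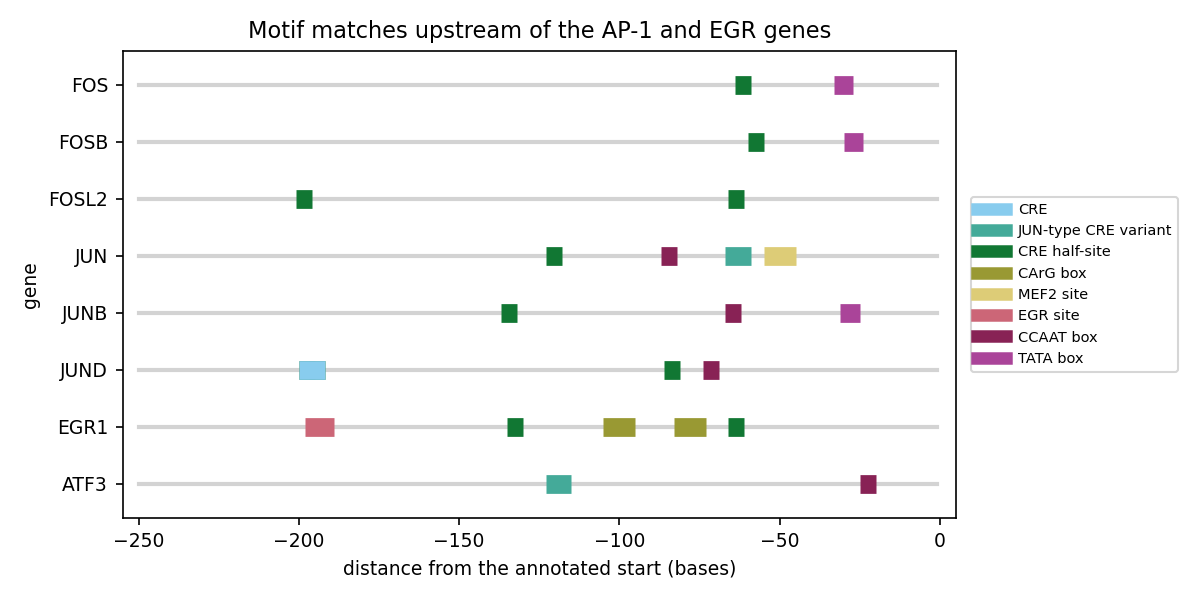
Position of each motif match (coloured blocks) in the 250 bases before the annotated start (x axis, bases) of the 8 genes with an entry in the table (y axis; the upstream-most start for ATF3), both strands. TGACATCA, drawn as the JUN-type variant, was matched upstream of JUN and ATF3, and CArG boxes upstream of EGR1.

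Upstream windows were found for 8 of the 10 members, FOSL1 and EGR3 having no entry. Within these windows EGR1 was the member with CArG boxes. They lay from 105 to 96 and from 83 to 74 bases before its start, and EGR1 also held an EGR site. Bases farther upstream were not searched, so a CArG box there, for FOS or any other member, would have been missed. CArG boxes occurred in 1.16% and EGR sites in 8.41% of all windows. FOS, FOSB, FOSL2, JUN, JUNB, JUND and EGR1 each had at least 1 TGACG half-site, JUND having the full TGACGTCA, which 1.65% of windows held. The share of G and C was 62.0% for JUN, 70.8% for JUNB, 74.8% for JUND and 49.2% for the upstream-most start of ATF3. The median over all windows was 58.0%. No member had TGACTCA in its window, a match found in 4.2% of windows.

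The overexpressed gene was read first. HMGA2 itself did not rise clearly with the label. The brighter of its probes read 5576 and 5270 on the vector arrays and 3917 and 4369 on the arrays labelled HMGA2. The dimmer probe read 2728 and 3493 against 4596 and 3466, with groups that overlapped. In the fit of every probe the log2 differences were -0.39 (adjusted p = 0.00296) and 0.37 (adjusted p = 0.0177), and after quantile normalization -0.19 (adjusted p = 0.143) and 0.59 (adjusted p = 0.0655). The sources used here do not place these probes against the insert of the plasmid. Each direction below therefore rests on the labels, and the groups are called the vector arrays and the arrays labelled HMGA2.

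Median intensity per array ran from 607 to 767, and arrays of one line correlated across genes at 0.988 and 0.992. Of the 11 epithelial and colorectal markers 10 had a probe, and all 10, EPCAM, CDH1 and CDX2 among them, were above the limit for dim genes (7.87 log2) on every array. Single markers moved both ways: KRT20 (-2.74, adjusted p = 7.93e-05), KRT8 (-2.42, adjusted p = 7.93e-05) and CDX2 (-0.62, adjusted p = 0.00722) fell, and VIL1 (1.23, adjusted p = 0.00043), EPCAM (0.26, adjusted p = 0.0208) and CDH1 (0.26, adjusted p = 0.0244) rose. The summed intensity of the list, to which EPCAM gave the most, was 487345 and 462988 on the vector arrays and 529986 and 538498 on the arrays labelled HMGA2. Of 7 fibroblast markers 2 lay above that limit throughout, COL1A1 and LUM, while VIM, COL1A2, COL3A1 and DCN lay below it on average. The summed level of this list was 5058 and 6248 against 5162 and 4370. CD14 was the 1 leukocyte marker of 4 measured above the limit on every array, PTPRC, CD3E and LYZ being below it, and the leukocyte sum was 4935 and 5445 against 3540 and 3161. The endothelial sum was 2075 and 2223 against 1934 and 1863, with PECAM1, VWF and CDH5 above the limit. The part of these markers in the results was not tested.

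JUN, JUNB and ATF3 were the members that passed the test both as deposited and after quantile normalization. On the arrays labelled HMGA2 JUN was 1.77-fold higher (95% interval 1.54 to 2.03), ATF3 was 2.08-fold higher (1.73 to 2.51) and JUNB was 3.20-fold lower, with n = 2 arrays a group. JUN and JUNB, close relatives that share partners and binding site, thus moved in opposite directions in the same RNA samples. The other 7 members did not pass the test as deposited, where 43.6% of all genes tested were called. In bulk RNA a lower level in every cell and fewer cells with the transcript cannot be told apart. Each member was above the limit for dim genes in both groups, so all 10 were tested.

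Every AP-1 dimer needs a JUN family protein or a close relative. JUN, the founding member and a strong activator when phosphorylated by JUN N-terminal kinases, read 10601 and 9825 on the vector arrays and 18300 and 17817 on the arrays labelled HMGA2. Both arrays labelled HMGA2 lay well above both vector arrays, and arrays of one line differed by 0.11 and 0.04 log2. The log2 difference was 0.82 (SE 0.08, limma adjusted p = 0.000682), and 0.92 after quantile normalization (adjusted p = 0.000922).

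JUNB, which restrains JUN at some promoters and replaces it at others, read 3344 and 3426 on the vector arrays and 1187 and 941 on the arrays labelled HMGA2. The groups were far apart and did not overlap. The log2 difference was -1.68 (SE 0.13, 95% interval -2.005 to -1.35, adjusted p = 0.000365), and -1.43 after quantile normalization (adjusted p = 0.000851). JUND, the member that is least dependent on stimulation and is made in most resting cells, read 34982 and 27270 against 36385 and 40916. The groups did not overlap, but the vector arrays differed from each other by 0.36 log2. Its log2 difference of 0.32 (95% interval -0.003 to 0.65) missed the threshold as deposited (adjusted p = 0.0997) and passed after quantile normalization (0.41, adjusted p = 0.0298). Without vector replicate 1 it was 0.50 (adjusted p = 0.0021) and without vector replicate 2 0.14 (adjusted p = 0.467). In these and all later values with an array left out, 1 array stands for its group and is assumed to vary like those of the other group, so such a p carries no spread of its own for that group.

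A ratio within an array does not depend on a linear scaling of that array. The log2 ratio of the JUN probe to the JUNB probe was 1.67 and 1.52 on the vector arrays and 3.95 and 4.24 on the arrays labelled HMGA2, a difference of 2.50. The groups of 2 arrays did not overlap, and an exact permutation of 2 against 2 arrays cannot give a two-sided p below 0.333. The ratio of JUN to JUND moved less, from -1.72 and -1.47 to -0.99 and -1.20, a difference of 0.50. JUN against FOS went from 2.83 and 2.53 to 3.38 and 3.29, a difference of 0.65. These are changes of ratio between probes and do not give the relative amounts of the messengers.

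ATF3, a stress-induced member of the ATF branch that can pair with JUN proteins and often acts as a repressor, read 2019 and 1946 on the vector arrays. On the arrays labelled HMGA2 it read 3806 and 4485, both far above the vector arrays. The log2 difference was 1.06 (SE 0.11, adjusted p = 0.000834), and 1.28 after quantile normalization (adjusted p = 0.000675). The log2 ratio of ATF3 to JUNB accordingly went from -0.73 and -0.82 to 1.68 and 2.25.

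**Figure D2:**
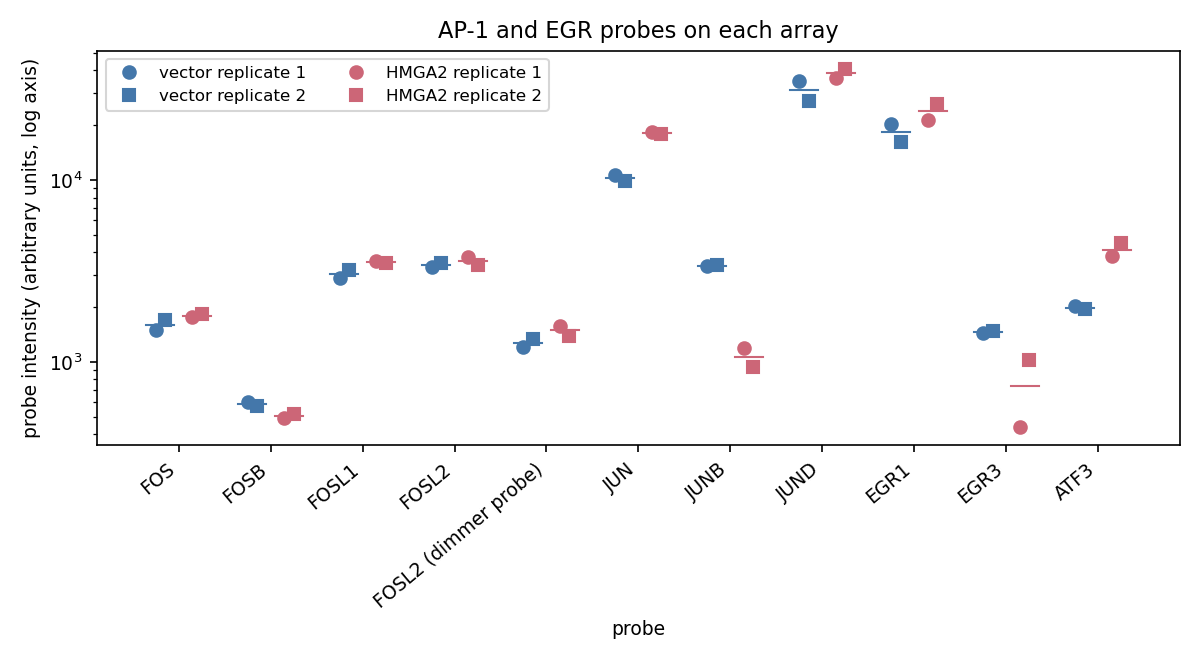
Intensity of each of the 11 probes (x axis) on each array (y axis, arbitrary units, log axis), with vector arrays in blue, arrays labelled HMGA2 in red, circles for replicate 1, squares for replicate 2 and short lines at the mean of the group. JUN and ATF3 were higher and JUNB lower on both arrays labelled HMGA2, and the EGR3 value of 437 on HMGA2 replicate 1 stands apart from the 1028 on replicate 2.

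The FOS family supplies the partners of JUN proteins. FOS, the classical serum-induced member, read 1491 and 1697 on the vector arrays and 1755 and 1824 on the arrays labelled HMGA2. The groups did not overlap, but their gap was smaller than the difference between the vector arrays. The log2 difference was 0.17 (95% interval -0.10 to 0.44, adjusted p = 0.262) as deposited and 0.41 (adjusted p = 0.0186) after quantile normalization.

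FOSL1, also called FRA1 and known from motile and invasive carcinoma cells, read 2896 and 3206 against 3569 and 3481. The groups did not overlap. Its log2 difference of 0.21 (95% interval -0.02 to 0.44, adjusted p = 0.122) likewise passed after quantile normalization (0.44, adjusted p = 0.0131). FOSB, whose gene also makes a truncated protein, read 603 and 573 against 493 and 518. It gave -0.22 (95% interval -0.60 to 0.16, adjusted p = 0.305), -0.03 after quantile normalization (adjusted p = 0.892) and 0.003 with array medians subtracted, so that it had no stable direction.

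FOSL2, or FRA2, was the member with 2 probes. The brighter read 3315 and 3474 against 3783 and 3406, and the groups overlapped. Its log2 difference was 0.08 (95% interval -0.15 to 0.31, adjusted p = 0.535), and 0.30 after quantile normalization (adjusted p = 0.056). The dimmer probe read 1202 and 1340 against 1583 and 1393, without overlap, and in the fit of every probe it gave 0.23 (adjusted p = 0.275) and, after quantile normalization, 0.48 (adjusted p = 0.0208). Both probes of FOSL2 thus pointed the same way without passing as deposited.

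EGR1, an early growth response factor that links MAP kinase signals to growth and to TGF-beta genes, read 20303 and 16240 on the vector arrays and 21482 and 26290 on the arrays labelled HMGA2. The groups did not overlap, while arrays of one line differed by 0.32 and 0.29 log2. The log2 difference was 0.39 (95% interval 0.04 to 0.74, adjusted p = 0.0725) and passed after quantile normalization (0.46, adjusted p = 0.0272). Without vector replicate 1 it was 0.55 (adjusted p = 0.00129) and without vector replicate 2 0.23 (adjusted p = 0.238). Without HMGA2 replicate 1 it was 0.53 (adjusted p = 0.0158) and without HMGA2 replicate 2 0.24 (adjusted p = 0.202).

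EGR3, a relative of EGR1 that EGR1 can induce, read 1440 and 1471 on the vector arrays but 437 and 1028 on the arrays labelled HMGA2. Both arrays labelled HMGA2 were lower, by amounts that differed by 1.23 log2. The mean log2 difference was -1.12 (SE 0.37, 95% interval -2.02 to -0.21) with an adjusted p of 0.0527, just short of the threshold. Without HMGA2 replicate 1 the difference was -0.50 (adjusted p = 0.0376) and without HMGA2 replicate 2 it was -1.74 (adjusted p = 0.000234). After quantile normalization it was -0.92 (adjusted p = 0.122). In the log2 ratio of EGR1 to EGR3 the arrays labelled HMGA2 were 5.62 and 4.68 and the vector arrays 3.82 and 3.47.

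**Figure D3:**
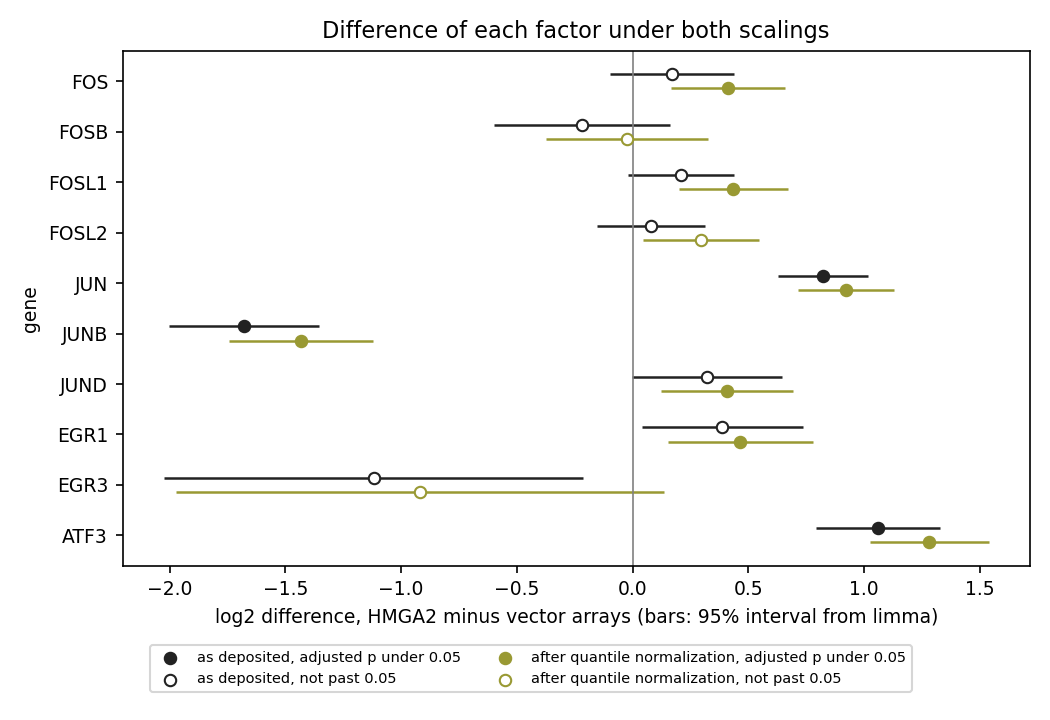
Log2 difference of each gene (y axis) between the arrays labelled HMGA2 and the vector arrays (x axis; bars are 95% intervals from limma, n = 2 arrays a group), as deposited in black and after quantile normalization in olive, filled where the adjusted p was under 0.05. JUN, JUNB and ATF3 were past the threshold under both scalings, and FOS, FOSL1, JUND and EGR1 after quantile normalization.

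As a group, 3 of the 10 members were called as deposited, 2 higher and 1 lower. Over all 13752 genes tested 43.6% were called, 14.9% higher and 28.7% lower, so the share of members called was not above that of genes in general. After quantile normalization 7 were called, 6 higher and 1 lower, against 50.6% of all genes (27.8% higher, 22.8% lower). That scaling raised the median difference of all genes by 0.18 log2, from -0.09 to 0.08, and the median of the members went from 0.19 to 0.41. The groups did not overlap for 9 of the 10 members, 6 higher and 3 lower, as they did for 71.3% of all genes (27.7% higher, 43.6% lower). After quantile normalization the groups of 9 members did not overlap, FOSB being the exception, against 77.0% of all genes. The probe fit called 6 of 11 member probes, JUND, EGR1 and EGR3 being added to JUN, JUNB and ATF3. Of all probes it called 32.4% (10.9% higher, 21.5% lower), but those include dim probes and probes without a gene, unlike the members. With probes below the 25th percentile left out, 4 member probes were called, and the share of all probes in that fit is not given here. For EGR3 the probe fit had an SE of 0.21, where the gene fit had 0.37.

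The genes closest in pattern over the 4 arrays were sought for ATF3 and JUNB, by the distance between log2 values taken minus the mean of each gene. For ATF3 they were CXXC5 (distance 0.048), HYI (0.053) and RPUSD1 (0.073), with log2 differences of 1.04, 1.03 and 1.09. For JUNB they were SRSF7 (0.034), PYGL (0.043) and NDUFAF8 (0.055), with -1.65, -1.72 and -1.71. Over 4 arrays such likeness is a matter of the group difference and little else.

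Other bZIP factors that can pair with or compete against the members moved both ways. Of 28 listed 26 were tested, of which 5 rose and 8 fell, with a median of -0.15 against -0.09 for all genes tested. Over all genes tested 14.9% rose and 28.7% fell, and 27.8% and 22.8% did so after quantile normalization. Whether this or any later list differed from those shares was not tested. BATF, which pairs with JUN proteins in place of FOS, read 3608 and 3793 on the vector arrays and 1392 and 1324 on the arrays labelled HMGA2, a fall of -1.45 log2 (SE 0.09, adjusted p = 0.000205). NFE2L1, a regulator of proteasome genes, fell by 0.87 log2 (adjusted p = 0.000716). CREM, a responder to cyclic AMP, rose by 0.76 (adjusted p = 0.00103), but its second probe gave 0.16 (adjusted p = 0.436). ATF7, a partner of JUN, rose by 0.69 on its brightest probe (adjusted p = 0.0299), and its other probes gave 0.16, -0.01 and -0.61 without passing. That call was lost without HMGA2 replicate 2 (0.57, adjusted p = 0.0636). After quantile normalization 9 rose and 5 fell.

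The remaining EGR genes averaged under 7.87 log2 over the 4 arrays, so the gene fit left them out. EGR2 read 71 and 177 on the vector arrays, where it was dim, and 314 and 283 on the arrays labelled HMGA2, where it was not. Its vector readings differed by 1.32 log2. The lowest intensity of any probe was -29 and -5 on the vector arrays and 62 and -7 on the arrays labelled HMGA2. In the fit of every probe EGR2 passed, at 1.41 log2 (SE 0.43, adjusted p = 0.00805) and 1.35 after quantile normalization (adjusted p = 0.0138). So near the floor this rise is uncertain, and the part of array background in it was not tested. EGR4 was dim in both groups, at 142 and 150 against 207 and 136, and did not pass in that fit (0.20, adjusted p = 0.8). Of the corepressors that bind EGR proteins, NAB2, itself a target of EGR1, read 9465 and 9438 against 12977 and 13025 and rose by 0.46 log2 (SE 0.07, adjusted p = 0.00408). Its second probe gave 0.68 (adjusted p = 0.00014). NAB1 gave -0.18 (adjusted p = 0.225) as deposited and 0.02 after quantile normalization.

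Of 33 other immediate early genes tested 13 fell and 6 rose, where 28.7% of all genes tested fell and 14.9% rose. Their median was -0.24 log2 against -0.09 for all genes tested, and whether the list differed from other genes was not tested. After quantile normalization 12 rose and 11 fell. ID1, an inhibitor of helix-loop-helix factors, fell by 2.33 log2, and MYC (-1.88) and the zinc finger factor KLF4 (-1.21) fell as well. BTG1, an antiproliferative gene, went from 4427 and 4224 to 1846 and 1696 (-1.29, SE 0.09, adjusted p = 0.000295), while its dim second probe gave -0.23 and did not pass.

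**Figure D4:**
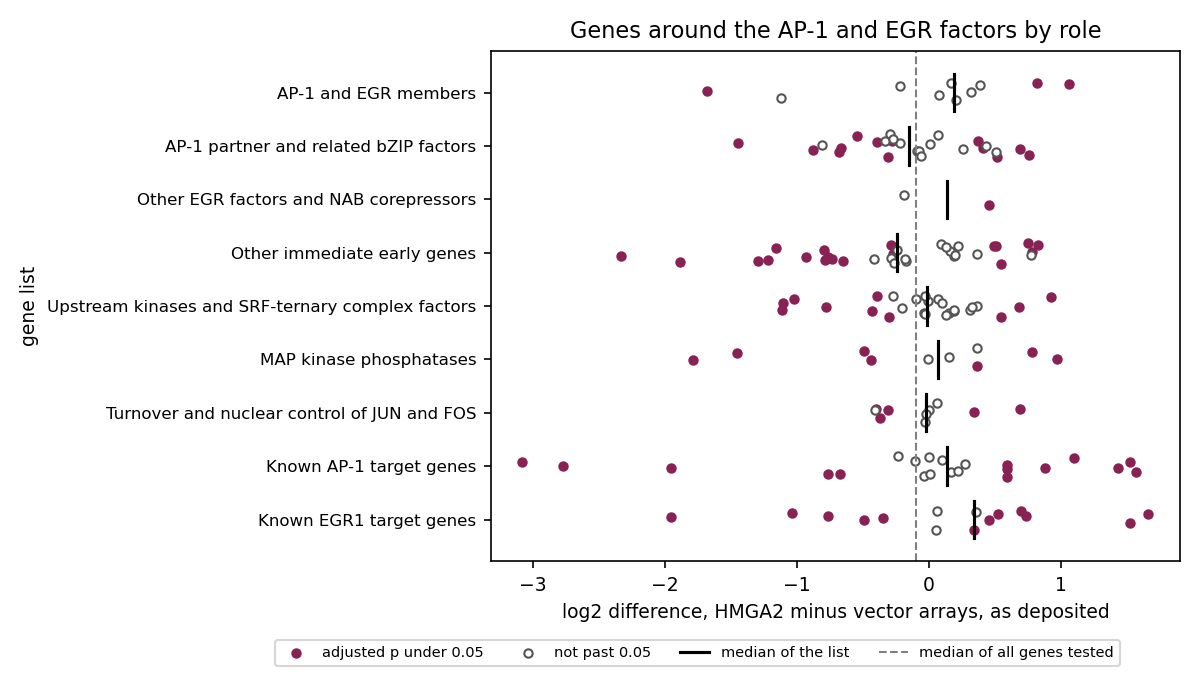
Log2 difference as deposited (x axis) of each tested gene in the members' list and 8 lists of related genes (y axis), filled where the adjusted p was under 0.05, with the median of each list as a black line and that of all genes tested as a dashed line. Each list with more than 2 tested genes held genes on both sides of 0, and list medians lay between -0.24 and 0.35.

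Genes of the kinases and factors upstream of FOS, JUN and EGR1 were mixed, 3 higher and 7 lower of 26 tested, with a median of -0.02. The share called was 38.5%, against 43.6% of all genes tested. RPS6KA3, the RSK2 kinase that acts below ERK, went from 6901 and 7258 to 3088 and 3485 (-1.11, SE 0.10, adjusted p = 0.000462), and its second probe gave -1.60 (adjusted p = 8.09e-09). MAPK3, which encodes ERK1, fell by 1.02 log2 (adjusted p = 0.00103). MRTFB, a cofactor of serum response factor, fell by 1.10 (adjusted p = 0.000742), with -0.59 on its second probe (adjusted p = 0.0157). MAPK9, which encodes the JUN kinase JNK2, read 7555 and 7260 on the vector arrays and 13722 and 14392 on the arrays labelled HMGA2, a rise of 0.92 log2 (SE 0.08, adjusted p = 0.000442). Of its other probes one gave 1.13 (adjusted p = 1.85e-08) and the other 0.10 (adjusted p = 0.579). After quantile normalization 9 rose and 5 fell.

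The MAP kinase phosphatases, many of them immediate early or delayed early genes themselves, included 3 that rose and 4 that fell among 10 tested, with a median of 0.07 log2. Their share called was 70.0%, against 43.6% of all genes tested, a difference that was not tested. DUSP10, which acts on JNK and p38, went from 1764 and 1562 to 505 and 460 (-1.78, SE 0.13, adjusted p = 0.000315). DUSP16, which acts on JNK, fell by 1.45 (adjusted p = 0.000163), with -0.84 on its second probe (adjusted p = 1.31e-05). DUSP5, a nuclear ERK phosphatase, rose by 0.97 (adjusted p = 0.00288), and DUSP1, the classical immediate early phosphatase and also on the list of other immediate early genes, by 0.78 (adjusted p = 0.00103). After quantile normalization 5 rose and 4 fell.

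Among genes that control the turnover or activity of JUN and FOS proteins, 2 rose and 3 fell of 10 tested, and 2 rose and 1 fell after quantile normalization. TRIB2, a pseudokinase that recruits a ubiquitin ligase, rose by 0.69 log2 (adjusted p = 0.0211), a call lost without HMGA2 replicate 2 (0.45, adjusted p = 0.0567). COPS5, first described as a JUN coactivator, fell by 0.40 (adjusted p = 0.00804), but gave -0.18 with array medians subtracted (adjusted p = 0.372). CSNK2A1, a catalytic subunit of casein kinase 2, rose by 0.34 (adjusted p = 0.0122), and the difference was 0.355 without vector replicate 1 (adjusted p = 0.0566) and 0.325 without vector replicate 2 (adjusted p = 0.0869), about as large but no longer past the threshold. FBXW7, the ubiquitin ligase adaptor that targets JUN, gave -0.37 on its brightest probe (adjusted p = 0.0146) but 0.31 (adjusted p = 0.0493) and 0.23 (adjusted p = 0.126) on the others, so that its probes disagreed. Its call was also lost after quantile normalization (-0.16, adjusted p = 0.171), without vector replicate 1 (adjusted p = 0.0663) and without HMGA2 replicate 2 (adjusted p = 0.0514).

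Genes known as AP-1 targets did not follow 1 direction. Of 28 listed 22 were tested, 8 rose and 5 fell, the median was 0.14 log2, and after quantile normalization 12 rose and 5 fell. As deposited 59.1% were called, against 43.6% of all genes tested. The protease PLAU rose by 1.57, while the prostaglandin synthase PTGS2 (-3.08), CD44 (-2.77) and TGFB1 (-1.95) fell; a second CD44 probe, read at 366 and 494 against 398 and 353 and so above the limit for dim genes, gave -0.18 and did not pass (adjusted p = 0.674). The CD44 probes thus disagreed. Of 15 tested targets of EGR1, a list that shares TGFB1, FN1 and VEGFA with that of AP-1, 7 rose and 5 fell, with a median of 0.35 and, after quantile normalization, 8 higher and 4 lower. As deposited 80.0% of them were called, and neither target list was tested against other genes. THBS1 rose by 1.67 and FN1 by 1.53, and the second FN1 probe, at 0 and 14 against 87 and -2, was too dim to measure it. ID3, which encodes a helix-loop-helix inhibitor, went from 44042 and 49508 to 21530 and 24119 (-1.03, adjusted p = 0.000576), and -0.41 on the mean of its probes did not pass (adjusted p = 0.0688).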

How the data were processed

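Total RNA was amplified to antisense RNA and coupled to Cy5, as the labels' protocols state. The authors' deposited table holds 1 linear intensity per probe and array, and the sources used here do not give the scanner, background correction or normalization behind it. Sample titles gave group and replicate. Of 31741 probes 24740 had 1 gene, 977 several and 6024 none, and older symbols of 1948 probes were updated through RefSeq genes (GRCh38.p14), which also supplied the upstream sequences.

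Deposited intensities were floored at 1 and put on a log2 scale without renormalizing. A gene was read from its brightest probe, and 4584 genes whose mean fell under the 25th percentile (7.87 log2) were dropped. The fit used lmFit and eBayes with an intensity trend (limma 3.58.1, R 4.3.3) over 13752 genes, calling adjusted p-values (Benjamini-Hochberg) under 0.05. A second fit held every probe. The fit was also run on data simulated from its own variance model, which cannot show how it handles technical replicates or array-wide scaling.

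From each list of related genes up to 4 were named, those with the largest differences past the threshold whose groups did not overlap, and all of the EGR and NAB list. For ATF3 and JUNB, the members with the largest differences past the threshold in each direction, the 3 nearest genes were named. The members and lists were chosen with earlier results of these data known. Alternatives were quantile normalization, subtraction of array medians, normexp with an offset of 50, other filters, the mean of probes, other variance models, a replicate block, each array left out, a threshold of 0.01 and 64 added before log2. The number of arrays limits the precision.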

Additional observations from a re-analysis of the deposited data

How the results depend on the processing

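JUN, ATF3 and JUNB kept their direction and their call under all 16 alternatives, at 0.77 to 1.04, 0.94 to 1.28 and -1.85 to -1.41 log2. The count of members called, 3 of 10 as deposited, was 7 after quantile normalization and 7 after normexp with quantile normalization. It was 8 with array medians subtracted and 6 without the filter on dim genes. Over all genes, 6960, 6971 and 6194 of 13752 were called under those 3 scalings, and 6396 of 18336 without the filter. Whether the members differed from other genes there was not tested. FOS and FOSL1 were called under the 3 scalings alone, EGR1 under 7 alternatives, JUND under 6 and EGR3 under 10 of 15. FOSB turned to 0.003 with medians subtracted, NAB1 to 0.017 after quantile normalization, 0.017 after normexp and 0.038 with medians subtracted, and FBXW7 to 0.058 on the mean of probes. Of all genes 5994 were called at 0.05 and 3727 at 0.01, with rises making up 34.2% of calls as deposited and 55.0% after quantile normalization. Member probes called went from 6 to 3 without the intensity trend and were 4 to 6 with an array left out. The count of list genes called stayed within 1.5 times in 118 of 128 cases. The exceptions were bZIP factors (13, and 7 at a threshold of 0.01), EGR and NAB genes (1, and 2 with no filter), AP-1 targets (13, and 7 with the filter at the 50th percentile) and turnover genes. Turnover genes numbered 5, against 3 after quantile normalization or normexp, 2 with medians subtracted, 1 at a threshold of 0.01 and 2, 3 and 2 when the array left out was the first or second vector array or the second HMGA2 array. Among 29 other named genes 436 of 458 values kept direction and call. Most of these genes were named for large differences past the threshold, which favours keeping the call. Filters, other variance models, replicate blocks and the stricter threshold leave a difference unchanged, for members as well, so direction could not turn there. The mean of probes likewise changes nothing for a gene with 1 probe. Same-numbered arrays deviated from their group means with r = -0.20. With 2 arrays a group the crossed value must then be 0.20, so this cannot show whether the numbers mark a pairing. The replicate block gave 4 members called and 5329 genes, and the crossed replicate block, added after the data were seen, 6 and 7209.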
